A study of Homo sapiens with 12 samples.

Results

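The apolipoprotein L genes APOL1, APOL2, APOL3, APOL4 and APOL6 of human chromosome 22 were followed across 12 RNA libraries of MCF10AT cells. The 5 members were taken by symbol from the 62702 entries of a table of gene counts. The family was singled out because APOL4 stood near the top of the response to prolactin (PRL) in these same libraries, with the 2nd largest averaged log2 fold change of 17677 tested genes. The PRL differences of the members are therefore given as descriptions with no p-value. The differences made by the receptor deletion were not used in that choice and were tested.

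Apolipoprotein L proteins bind lipids and act at membranes, and the family has expanded in primates. APOL1 is secreted and circulates with high-density lipoprotein, where it lyses trypanosomes, while APOL2, APOL3 and APOL6 act inside the cell. Several members are known interferon-inducible genes of endothelial cells and macrophages. PRL acts through its receptor on the kinase JAK2, which activates the transcription factor STAT5, and CISH is a STAT5 target that feeds back on this pathway.

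MCF10AT is a Ras-transformed derivative of the breast epithelial line MCF10A. All cells carried the human long prolactin receptor hPRLrL together with the intermediate receptor hPRLrI, and in the other genotype the intermediate receptor lacked its I-tail (hPRLrL/hPRLrI I-tail deleted). The 4 groups, with 3 libraries each, were therefore intact untreated, intact PRL, deleted untreated and deleted PRL. Every culture was starved of serum for 24 h in DMEM/F12 with 0.1% bovine serum albumin, and the PRL groups then received 250 ng/ml for 2 h. Untreated cells of both genotypes had the same starvation. The labels do not say if each genotype was a pool or a clone of cells, so the deletion cannot be told apart from other differences between the cell populations.

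Libraries held 36120808 to 57324865 counts, and 19073 to 25200 genes had at least 1 count, with the fewest in intact PRL library 2. CISH rose in both genotypes, from 3.83 ± 0.989 to 60.5 ± 8.95 CPM in intact cells and from 4.57 ± 1.14 to 59.4 ± 6.11 CPM in deleted cells (mean ± SD, n = 3; CPM are counts scaled to a common library size by TMM). PRLR lay between group means of 3405 and 3650 CPM, but the counts do not separate the receptor forms. All 5 basal and all 4 epithelial markers reached 1 CPM in every library. Summed basal markers were 778 to 1038 CPM in library 1 of every group and 3447 to 8348 CPM in the other 8 libraries. Of the fibroblast markers, COL1A1, PDGFRB and DCN were also present, while COL1A2 reached at most 0.676 CPM. The whole fibroblast list summed to 422 to 616 CPM. Leukocyte markers summed to 11.1 to 21.0 CPM in untreated and 18.2 to 30.9 CPM in PRL libraries, nearly all from CD14, while PTPRC and CD3E had at most 1 count. Endothelial markers summed to 1.14 to 3.09 CPM, and the hepatocyte genes ALB and TTR had at most 8 and 5 counts, while SERPINA1 was at 30.5 to 45.4 CPM. The part of these markers in the results below was not tested.

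On build GRCh38 (GENCODE 29), the members cover 619136 bases of chromosome 22. APOL6 (ENSG00000221963, 35648395 to 35668409, plus strand) lies apart from the rest, 471920 bases before the start of APOL3, with APOL5 and RBFOX2 between them. The other members are packed into 127201 bases. They are APOL3 (ENSG00000128284, 36140330 to 36166177, minus strand), APOL4 (ENSG00000100336, 36189124 to 36204840, minus strand), APOL2 (ENSG00000128335, 36226203 to 36239954, minus strand) and APOL1 (ENSG00000100342, 36253010 to 36267530, plus strand). All are annotated as protein coding, and none of the 5 overlaps another annotated gene. The transcripts of the members can be told apart by short reads almost everywhere. Of the 3785 distinct 50-base stretches in APOL1 transcripts, 23 (0.608%) also occur in another APOL gene, and the share was 0.383% for APOL2, 0.140% for APOL3 and 0 for APOL4 and APOL6.

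APOL4 was almost silent in untreated intact cells and was present in every PRL library. It is among the less studied members of the family. Intact untreated libraries 1 to 3 held 0.139, 0.165 and 0.208 CPM, from 6, 6 and 12 counts. Intact PRL libraries held 6.74, 0.807 and 3.14 CPM, from 312, 27 and 129 counts. The lowest PRL library stood above the highest untreated library, yet the PRL libraries differed among themselves far more than counting allows. Their 95% Poisson intervals, which cover counting error alone, were 6.01 to 7.53, 0.532 to 1.17 and 2.63 to 3.74 CPM. Deleted untreated libraries held 0.323, 0.951 and 0.726 CPM, and deleted PRL libraries 7.80, 5.77 and 4.29 CPM. Here too the treated and untreated ranges did not overlap, and the treated libraries lay closer together. The group means were 0.171 ± 0.0349, 3.56 ± 2.99, 0.667 ± 0.318 and 5.95 ± 1.77 CPM in intact untreated, intact PRL, deleted untreated and deleted PRL cells.

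**Figure D1:**
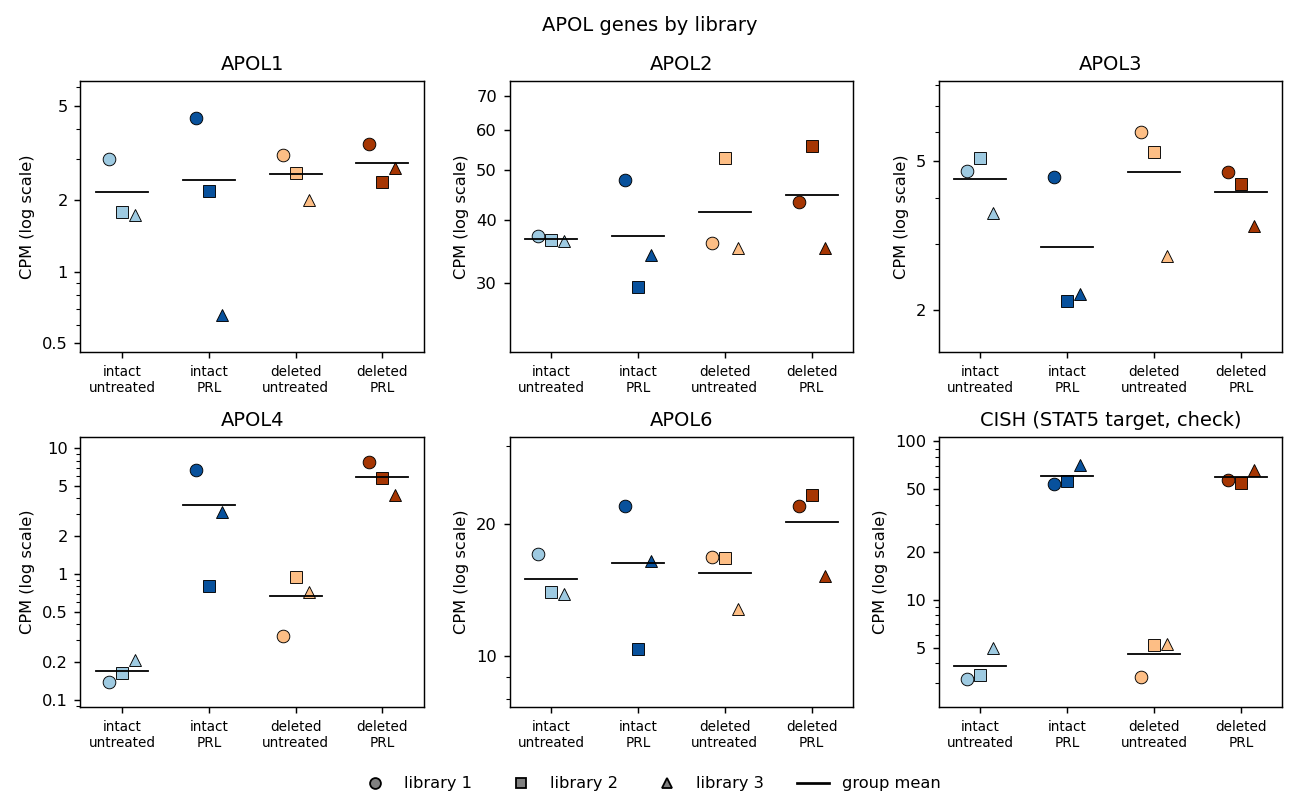
CPM (log scale) of the 5 APOL genes and of CISH in each of the 12 libraries, with circles, squares and triangles for libraries 1, 2 and 3 and a line for the mean of the 3 libraries of a group. APOL4 moves with PRL in both genotypes, from 0.171 to 3.56 CPM and from 0.667 to 5.95 CPM, while the groups of the other members overlap.

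The log2 fold change of APOL4 with PRL was 4.35 ± 0.69 (SE) in intact cells, 3.15 ± 0.61 in deleted cells and 3.75 ± 0.46 as the average of both, with a 95% interval of 2.76 to 4.74. The ratios of group means were 20.8 and 8.93. CISH, the gene ranked 1st, differed by 3.84 ± 0.18. APOL4 had the larger SE. Its coefficient of variation was 83.8% in intact PRL and 29.7% in deleted PRL cells, against 14.8% and 10.3% for CISH. Without PRL it was 20.4% in intact and 47.7% in deleted cells, against 25.9% and 24.9% for CISH. The intact untreated libraries also held only 6, 6 and 12 APOL4 counts. The part of spread and of low counts in the SE was not tested. The averaged PRL comparison called 0.119% of tested genes at an adjusted p under 0.05 (edgeR's quasi-likelihood test with Benjamini-Hochberg adjustment), and APOL4 was the member among them. The intact and the deleted PRL comparisons each called 0.017%, with no member among them, and groups that did not overlap with PRL higher made up 2.61% and 3.29% of genes. The family was chosen on this response, so nothing is read from these counts. With each of the 12 libraries left out in turn, the average stayed between 3.33 and 3.99. In bulk RNA, a change in the number of cells that express APOL4 and a change in RNA per cell cannot be told apart.

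For the other members the PRL and untreated ranges overlapped in both genotypes. APOL2, a cytoplasmic and endoplasmic reticulum protein, was the most abundant of them and held 37.2, 36.4 and 36.3 CPM in intact untreated and 47.9, 29.5 and 34.2 CPM in intact PRL libraries. The treated values lay on both sides of the untreated ones, and the untreated libraries were nearly identical. In deleted cells APOL2 was at 36.0, 52.9 and 35.3 CPM untreated and at 43.4, 55.8 and 35.2 CPM with PRL. Its averaged log2 fold change was 0.07 ± 0.16.

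APOL6, whose protein carries a motif resembling the BH3 domain and can cause apoptosis when overexpressed, had 17.1, 14.0 and 13.8 CPM in intact untreated and 21.9, 10.4 and 16.5 CPM in intact PRL libraries. Deleted untreated libraries held 16.8, 16.7 and 12.8 CPM, and deleted PRL libraries 21.9, 23.3 and 15.2 CPM. In deleted cells 2 of the 3 PRL libraries lay above every untreated library, and the ranges overlapped through library 3. The averaged log2 fold change was 0.25 ± 0.18.

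APOL3, an interferon-inducible intracellular protein that can dissolve bacterial membranes, had 4.71, 5.10 and 3.63 CPM in intact untreated and 4.53, 2.12 and 2.22 CPM in intact PRL libraries. It was the member with the lowest PRL value, with an averaged log2 fold change of -0.39 ± 0.25, and 2 of the 3 intact PRL libraries were below every intact untreated one. Deleted libraries held 5.98, 5.30 and 2.79 CPM untreated and 4.69, 4.34 and 3.36 CPM with PRL, so all PRL values lay inside the untreated range.

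APOL1, the secreted member, had 2.99, 1.79 and 1.74 CPM in intact untreated and 4.45, 2.18 and 0.658 CPM in intact PRL libraries. Both the highest and the lowest APOL1 values of the study were thus in the intact PRL group. Deleted libraries held 3.12, 2.62 and 2.00 CPM untreated and 3.47, 2.40 and 2.73 CPM with PRL. The log2 fold change in intact cells was 0.17 ± 0.50, and its direction turned to -0.63 ± 0.46 without intact PRL library 1 and to -1.05 ± 0.39 in limma-voom with sample quality weights. APOL1 was highest in library 1 in all 4 groups, as was its relative APOLD1 of chromosome 12 but not the other members. In each group library 1 had the lowest basal marker sum and the most detected genes. A link of these was not tested.

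The comparison of genotypes asked whether the I-tail of the intermediate receptor bears on these genes. In untreated cells APOL4 was higher with the deletion, and the ranges of 0.139 to 0.208 and 0.323 to 0.951 CPM did not overlap. Non-overlapping ranges with the deleted group higher occurred in 3.58% of all tested genes. The log2 fold change was 1.93 ± 0.69 with a 95% interval of 0.44 to 3.43 (unadjusted p = 0.0152, adjusted p = 0.99976 in edgeR's quasi-likelihood test with Benjamini-Hochberg adjustment). The nearest libraries of the 2 groups had 12 and 14 counts, and their Poisson intervals, 0.108 to 0.364 and 0.177 to 0.542 CPM, overlapped. With PRL the deleted and intact ranges overlapped, and the log2 fold change was 0.73 ± 0.55 (adjusted p = 0.99967 in edgeR). The untreated comparison and the PRL comparison each called 0.00566% of genes, and in the untreated one 0.837% had an unadjusted p under 0.05.

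Averaged over both treatments, the deletion difference of APOL4 was 1.33 ± 0.44 on the log2 scale, with an interval of 0.38 to 2.29 (unadjusted p = 0.00986, adjusted p = 0.991 by edgeR's quasi-likelihood test). This comparison called 0.00566% of genes, and 2.28% had an unadjusted p under 0.05. Whether APOL4 was called varied with the setting, and the cause was not tested. Without a count filter the estimate was 1.32 ± 0.29 and its edgeR adjusted p was 0.0116, while over all 20 alternatives the adjusted p ran from 0.0116 to 1.

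**Figure D2:**
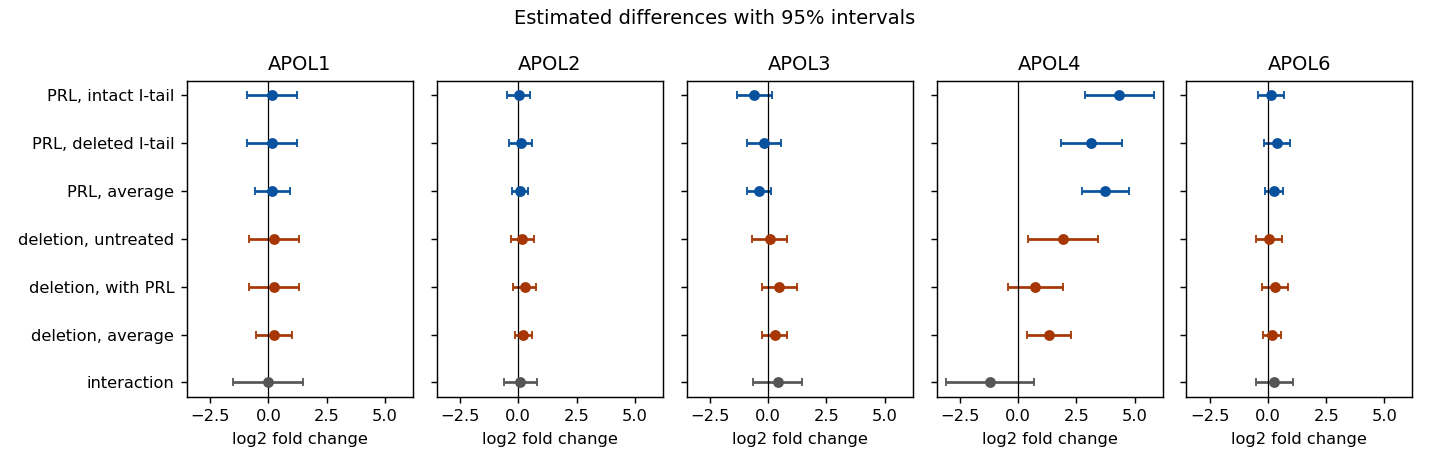
Estimated log2 fold changes (points) with 95% intervals (bars) for each member, from the fit to 12 libraries, for PRL against untreated, deleted against intact and the interaction of both. The PRL estimates of APOL4, the gene for which the family was chosen, range from 3.15 to 4.35, and its interaction is the estimate with the widest interval (-3.09 to 0.70).

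For the remaining members no deletion difference passed the test. Averaged deletion differences were 0.24 ± 0.35 for APOL1, 0.22 ± 0.16 for APOL2, 0.27 ± 0.25 for APOL3 and 0.18 ± 0.18 for APOL6 (log2 ± SE), with an adjusted p of 0.991 for each by edgeR's quasi-likelihood test. All 5 estimates were above 0, but the members share the same libraries, so their signs are not independent. The median over all tested genes was 0.03. In the deletion comparisons the ranges of these 4 members overlapped with and without PRL.

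The interaction asks whether the PRL effect itself differed between genotypes. For APOL4 it was -1.20 ± 0.88 on the log2 scale, meaning a smaller fold change in deleted cells, with an interval of -3.09 to 0.70 (unadjusted p = 0.196, adjusted p = 0.99999 by edgeR's quasi-likelihood test). That interval holds 0 and also holds a difference of several fold, so the size of the response in the 2 genotypes was not resolved at this spread. The interaction called 0 of 17677 genes in edgeR, DESeq2 and limma-voom, and 127 genes (0.718%) had an unadjusted p under 0.05 in edgeR. For the other members it was -0.01 ± 0.70 for APOL1, 0.09 ± 0.32 for APOL2, 0.41 ± 0.49 for APOL3 and 0.26 ± 0.37 for APOL6.

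To compare levels between genes, CPM were divided by the length of each gene's merged exons, which gives a level per kilobase (RPKM). In intact untreated cells the order was APOL2 at 10.5, APOL6 at 1.48, APOL3 at 0.759, APOL1 at 0.618 and APOL4 at 0.0391 RPKM. Only APOL3 and APOL1 had overlapping ranges there. In deleted untreated cells the order was the same, with APOL4 at 0.152 RPKM. By group means PRL moved APOL4 from last to the third place, at 0.814 RPKM in intact and 1.36 RPKM in deleted cells. In both PRL groups APOL2 stayed apart from the rest, and from APOL6 downward each gene overlapped with the next. With the longest transcript as length APOL2, APOL6 and APOL4 kept their places, while in the PRL groups APOL3 came before APOL1, at 0.816 and 0.810 RPKM in intact and 1.14 and 0.955 RPKM in deleted cells.

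**Figure D3:**
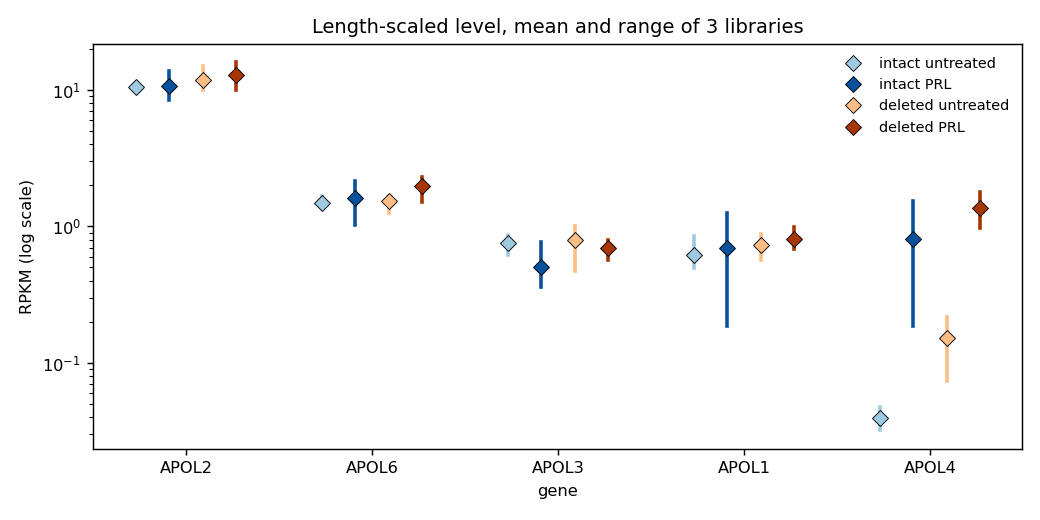
RPKM (log scale) of each member in each group, with diamonds for the mean and bars for the range of the 3 libraries. APOL2 stays above 10 RPKM in all 4 group means, and APOL4 moves from 0.0391 and 0.152 RPKM without PRL to 0.814 and 1.36 RPKM with it.

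The makeup of the family's reads changed accordingly. APOL2 took 62.8% of reads assigned to the 5 genes in intact untreated cells, 60.7% with PRL, and 63.7% and 57.4% in deleted cells without and with PRL. APOL4 took 0.295 ± 0.0753% and 5.07 ± 3.07% in intact cells and 1.03 ± 0.447% and 7.65 ± 1.73% in deleted cells (mean ± SD, n = 3). By group means APOL4 was thus the smallest part without PRL and the third largest with it. In intact PRL library 2 it was still the smallest, with 27 counts against 71 for APOL3 and 73 for APOL1. APOL3 had 7.66% in intact untreated and 4.64% in intact PRL cells, and 7.19% and 5.34% in deleted cells. The summed level of the family was 58.4 ± 3.33, 62.4 ± 20.9, 64.7 ± 12.6 and 77.9 ± 15.7 CPM in intact untreated, intact PRL, deleted untreated and deleted PRL cells. These sums overlapped between groups, and APOL4 made up a small part of them beside APOL2 and APOL6.

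Within groups, the members varied by different amounts. The SD of log2 CPM around the group means was 0.877 for APOL4 and 0.738 for APOL1, larger than in 87.0% and 81.3% of tested genes. It was 0.457 for APOL3, 0.347 for APOL6 and 0.295 for APOL2, against a median of 0.408 over all genes. APOL4 and APOL1 thus spread the most, and they were also the members with the fewest counts over all libraries. A link between spread and counts was not tested. Intact PRL library 1 was above its group mean for all 5 members, by 1.36 for APOL4, 1.23 for APOL1, 0.70 for APOL3, 0.50 for APOL6 and 0.40 for APOL2. Intact PRL library 2, with the fewest detected genes, was below for 4 of 5 members, by -1.63 for APOL4 and -0.58 for APOL6. Intact PRL library 3 departed mainly in APOL1, at -1.44. All 5 members were above the mean in deleted untreated library 2, and all 5 were below it in deleted PRL library 3.

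**Figure D4:**
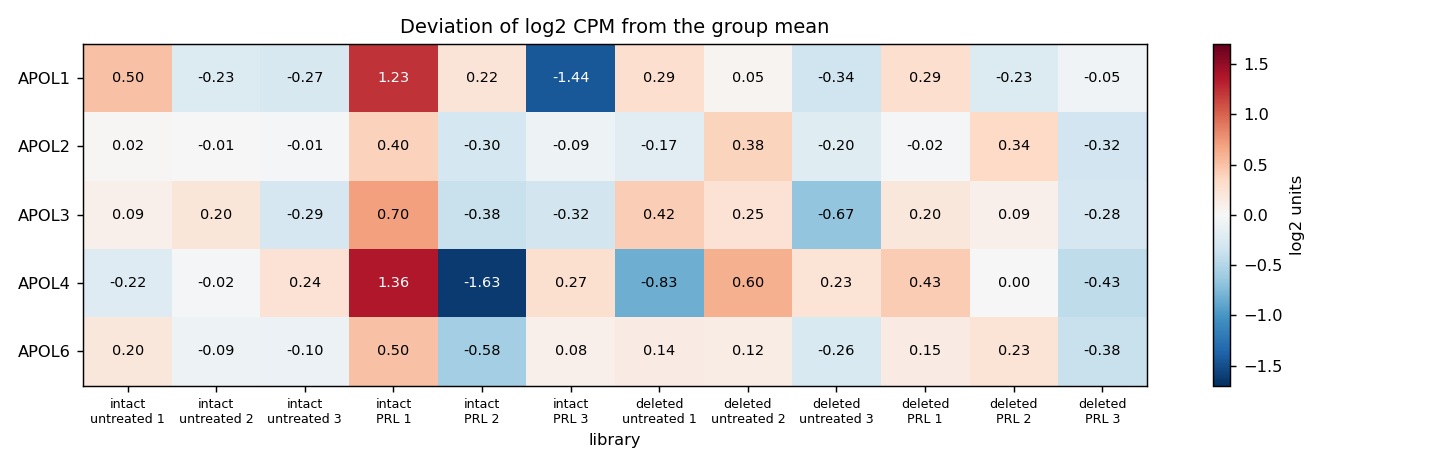
Deviation of log2 CPM (prior count 2) from the group mean for each member (rows) in each library (columns), with red above and blue below the mean. The widest departures are those of APOL4 in intact PRL library 1 (1.36) and library 2 (-1.63) and of APOL1 in intact PRL library 3 (-1.44).

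With group means removed, the pairs that varied most alike over the 12 libraries were APOL2 with APOL6 (Pearson r = 0.787) and APOL3 with APOL6 (r = 0.774). APOL4 went with APOL2 at r = 0.702 and with APOL6 at r = 0.698, and least with APOL1 at r = 0.118. These values describe 12 libraries that differed in depth and were scaled together. APOL6, the member that lies farthest from the others, was in both of the closest pairs by this measure. With group means kept, APOL1 with APOL3 (Pearson r = 0.616) was closer than APOL3 with APOL6 (r = 0.556).

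The genes whose log2 CPM followed APOL4 most closely over the 12 libraries, among 12950 with a mean of at least 1 CPM, were IL1R1 (r = 0.931), HEG1 (r = 0.925), TRIB1 (r = 0.914), LRRC8C (r = 0.912) and SLC39A14 (r = 0.893). IL1R1 encodes the interleukin-1 receptor and had group means of 5.21 ± 0.603, 8.10 ± 2.38, 5.30 ± 0.337 and 10.4 ± 0.984 CPM in the order intact untreated, intact PRL, deleted untreated and deleted PRL. TRIB1, a pseudokinase that guides a ubiquitin ligase, had 15.9 ± 3.90, 33.6 ± 5.38, 17.4 ± 1.93 and 37.4 ± 4.28 CPM. HEG1, a membrane receptor at endothelial junctions, had 148 ± 14.6, 305.7 ± 74.7, 193 ± 17.8 and 309 ± 52.4 CPM. LRRC8C is a subunit of volume-regulated anion channels and SLC39A14 a zinc and manganese transporter. All 5 were chosen by their likeness and so are not tested here. Their averaged PRL differences were 0.81 ± 0.16, 0.86 ± 0.14, 1.09 ± 0.15, 0.72 ± 0.19 and 0.39 ± 0.12 in the order named (log2 ± SE). The choice of genes depended on the measure. Without intact PRL library 2, 2 of the 5 remained among the closest 5, HEG1 at r = 0.959 and IL1R1 at r = 0.935, and CISH entered at r = 0.944. After group means were removed, 0 of the 5 remained, and BICD2 was closest at r = 0.945.

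For the other members the closest genes were DNAJC8 for APOL1 (r = 0.952), CHD9NB for APOL2 (r = 0.925), THEM4 for APOL3 (r = 0.933) and HSD11B2 for APOL6 (r = 0.917). The closest 5 genes of each member had 1 gene in common between members, EMC4, a subunit of a membrane protein insertion complex, which was near both APOL2 and APOL6.

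Of the relatives outside the members, APOL5 lies between APOL6 and RBFOX2 and had 0 counts in 10 of 12 libraries, with 2 counts in intact untreated library 1 and 5 in deleted untreated library 3. A count of 0 allows levels up to 0.0521 to 0.0897 CPM in these libraries (3 counts; counting error only). APOLD1, an endothelial early response gene on chromosome 12, had group means of 4.38, 3.53, 4.46 and 3.26 CPM in the order used above. Its averaged PRL difference of -0.38 ± 0.29 did not pass the test (edgeR adjusted p = 0.980).

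Interferon response genes, whose induction is the best known setting of APOL expression, did not pass the test with PRL at 2 h. Of 32 listed genes, 27 were tested and 0 rose or fell in any of the 7 comparisons by edgeR, DESeq2 or limma-voom. Over all tested genes edgeR called 0.119% for the averaged PRL effect and less in the other comparisons. A list this short would rarely hold a called gene, so nothing is read from this count. For the averaged PRL effect 1 of the 27 had an unadjusted p under 0.05 in edgeR, against 3.81% of all tested genes. Their median PRL difference was -0.02, equal to the median of all genes at -0.02, with 12 above 0 and 15 below. Without intact PRL library 2, 8 were above and 19 below with a median of -0.06, against -0.01 for all genes. IRF1, a transcription factor of the interferon response, was at 0.30 ± 0.12 and the GTPase GBP1 at 0.45 ± 0.23 (log2 ± SE, edgeR adjusted p = 0.980 for both). IFIT1, an RNA sensor, was at -0.39 ± 0.26 and the exonuclease ISG20 at 0.23 ± 0.17, and neither passed. CXCL10, CXCL11, RSAD2, XAF1 and GBP4 had too few counts to be tested. In the interaction, 22 of 27 were above 0 with a median of 0.20, against -0.02 for all genes. In edgeR 0 of the 27 had an unadjusted p under 0.05 there, against 0.718% of all tested genes. The 27 genes share the same libraries, so their signs are not independent. Without intact PRL library 2, 18 of 27 were above 0 with a median of 0.27.

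Of 18 listed NF-kB response genes, 15 were tested and 0 were called in any of the 7 comparisons by the same 3 tools. Over all tested genes edgeR called 0.119% for the averaged PRL effect, so nothing is read from this count either. For the averaged PRL effect, 0 of the 15 had an unadjusted p under 0.05 in edgeR, against 3.81% of all tested genes. The median was -0.04, against -0.02 for all genes. The members with the smallest p were TNFAIP2 at 0.28 ± 0.13, the mitochondrial superoxide dismutase SOD2 at -0.33 ± 0.23, and the NF-kB subunits RELB at 0.25 ± 0.18 and NFKB2 at 0.23 ± 0.17 (edgeR adjusted p = 0.980 for each).

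Among the other apolipoproteins, 6 of 15 were tested and 0 were called by the same 3 tools in any comparison. For the averaged PRL effect 0 of the 6 had an unadjusted p under 0.05 in edgeR, and the median was 0.06. Over all tested genes edgeR called 0.119% for this effect, and 3.81% had an unadjusted p under 0.05. With 6 genes nothing is read from these counts. CLU, the secreted chaperone clusterin, was the abundant one at a mean of 597 CPM and differed by -0.18 ± 0.19 with PRL. APOC1, a lipoprotein component that inhibits lipid transfer, was at 0.13 ± 0.19, APOD, a lipocalin, at 0.25 ± 0.51, and APOM, another lipocalin, at 0.08 ± 0.25, and none of these passed. APOA2, APOA4, APOB and APOH, products of liver and intestine, had 0 counts in every library.

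APOL4 was chosen for its large PRL difference, so nothing is read from smaller differences in the genes beside the cluster. Of 14 neighbours named here, 12 were tested and 0 were called by edgeR for the averaged PRL effect, against 0.119% of all tested genes. For this effect 7 were above 0 and 5 below, with a median of 0.15. Without intact PRL library 2 the median was 0.03. HMOX1, the enzyme that degrades heme, lies on the far side of APOL6 and was at 0.58 ± 0.16 (edgeR adjusted p = 0.479). RASD2, a small GTPase, was at 0.78 ± 0.36, the endosomal sorting gene TOM1 at 0.36 ± 0.21 and MYH9, the nonmuscle myosin heavy chain next to APOL1, at 0.28 ± 0.14, each with an edgeR adjusted p of 0.980. In edgeR, 2 of the 12 had an unadjusted p under 0.05 in the averaged PRL comparison, against 3.81% of all tested genes, and 1 of the 12 without intact PRL library 2.

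**Figure D5:**
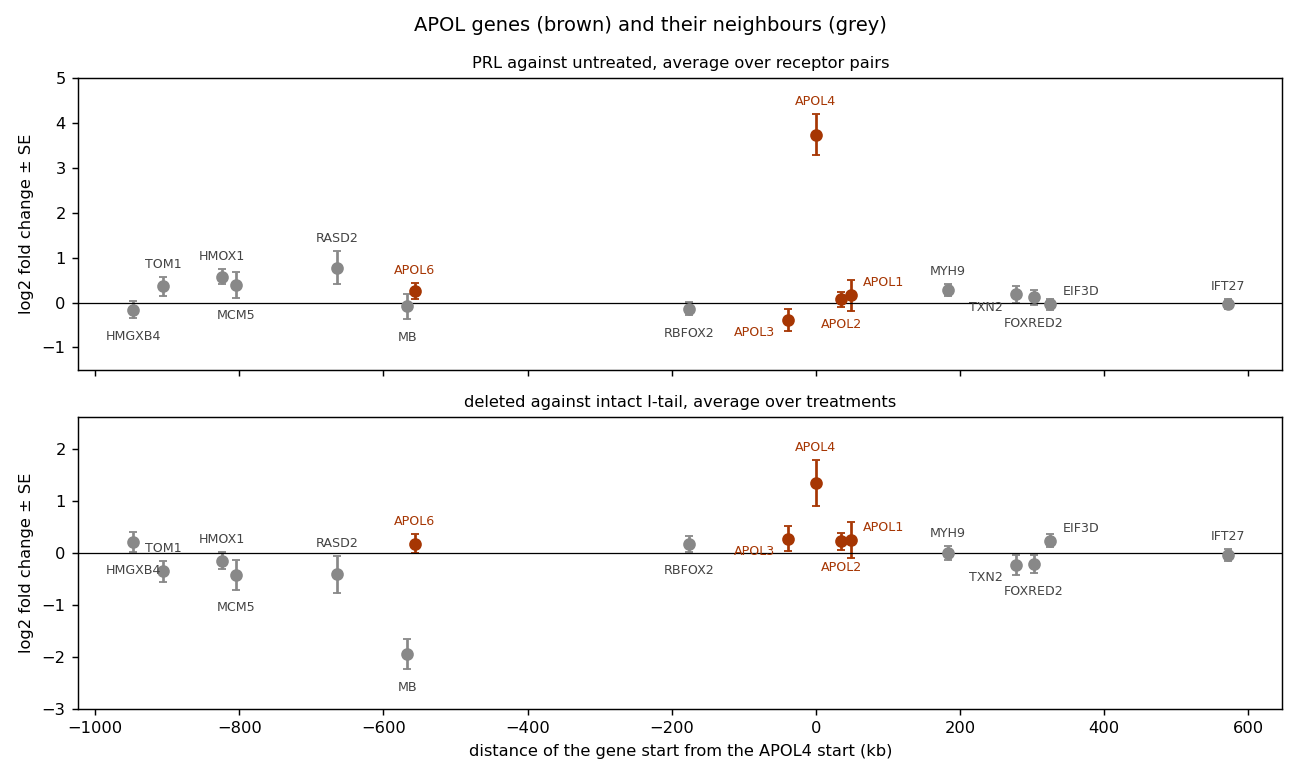
Averaged log2 fold changes ± SE of the APOL genes (brown) and of tested neighbours (grey), with PRL against untreated above and deleted against intact below, by distance of the gene start from the APOL4 start in kb. APOL4, the gene for which the family was chosen, stands at 3.75 in the upper plot. The genes on both sides lie between -0.39 (APOL3) and 0.78 (RASD2).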

How the data were processed

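RNA of 12 MCF10AT libraries was measured, 3 in each of 4 groups taken from the genotype and treatment labels. Libraries were selected for polyA per the labels' protocols. The deposited table holds raw whole-number counts per Ensembl gene, made by the authors with STAR 2.7.9a and featureCounts of Subread on GRCh38 per the submitters' processing notes, and neither the annotation release nor the strand setting of the counting is stated. The table has 62703 entries, of which 1 without values was left out. Libraries were numbered within a group in title order. The labels speak of biological replicates without saying what was repeated, so p-values measure the spread between these samples.

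In edgeR 4.0.16 (R 4.3.3), filterByExpr kept 17677 genes, among them all 5 members. After TMM scaling, a mean was fitted for each group with robust quasi-likelihood estimates of the spread, which leaves 8 residual degrees of freedom. In each of 7 comparisons the p-values of all genes in the fit were adjusted together (Benjamini-Hochberg), and 0.05 was the threshold. The SE comes from the estimate and its F value. Levels per length used merged exons of GENCODE 29, and log2 CPM a prior count of 2. The fit was also tested on simulated counts.

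The members, gene lists and tests were chosen with earlier results of these data known. Named were the members, APOL5, APOLD1, CISH and PRLR, the 5 genes most like each member by Pearson r (the closest one where space is short), and of each list the called members and the 4 with the smallest p for the averaged PRL effect. EMC4, BICD2, MB, list genes without enough counts, and genes that entered under other measures of likeness were picked once values had been seen. The fit was repeated with scaling by RLE, by the upper quartile or by library size, with no filter or a stricter filter (10 counts and 1 CPM in at least 3 libraries), in DESeq2 1.42.0 and in voom of limma 3.58.1. Further alternatives were fits of the compared groups only, a replicate block and leaving out each library, and lists and likeness without intact PRL library 2 were added after seeing the data. Apart from the 50-base stretches shared between their transcripts, sequences of the members were not analysed here, and neither were reads and isoforms.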

Additional observations from a re-analysis of the deposited data

How the results depend on the processing

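Across 8 other settings the PRL effect of APOL4 averaged over genotypes was 3.46 to 3.76. Within genotypes it was 3.85 to 4.36 in intact and 3.05 to 3.17 in deleted cells over 9 settings. The call within a genotype varied: it was made in 4 (intact) and 5 (deleted) of these 9 settings, in both without a count filter, with the replicate block, in DESeq2 and in limma-voom, and in both by edgeR without intact PRL library 2. The family was chosen on this response, so these calls support nothing. Its deletion effect passed without a count filter alone (1.32, edgeR adjusted p = 0.0116), and the cause was not tested. No other member was called in any setting. Directions that turned belong to estimates smaller than their SE. The APOL1 interaction was 0.0056 with upper-quartile scaling, 1.20 in limma-voom and 0.16 with a replicate block, and -0.46 to 0.78 with a library left out. With a library left out, the APOL2 interaction was -0.076 to 0.32. The deletion effect was then -0.0062 to 0.64 (averaged) and -0.23 to 1.03 (with PRL) for APOL1. In untreated cells it was -0.040 to 0.28 for APOL2, -0.14 to 0.33 for APOL3 and -0.051 to 0.16 for APOL6. The replicate block rested on runs of title numbers, which the labels do not tie to batches. Each run holds 1 library per group, so no test within a run was possible. Library 1 of every group had the lowest basal marker sum and the most detected genes of its group, and whether the runs are batches was not tested. It gave 3.63 ± 0.42 for PRL and 1.43 ± 0.43 for the deletion in APOL4, both averaged. Over all genes, the averaged PRL comparison called 21, against 124 without a filter, 91 in DESeq2, 118 in limma-voom, 198 with the block and 11 to 27 with a library left out. The averaged deletion comparison called 1, against 33 without a filter, 10 in DESeq2, 9 in limma-voom and 11 with the block. For the single comparisons the counts were 3 and 1 to 62 for PRL in intact cells, 3 and 1 to 57 in deleted cells, 1 and 0 to 6 for the deletion in untreated and 1 and 0 to 4 in PRL cells. Depth limits APOL4 in untreated intact cells, which rests on 6 to 12 counts.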

Other observations

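Among the neighbours of the cluster, MB, the gene of the oxygen-binding protein myoglobin, was singled out after its values were seen. It lies beside APOL6 on the opposite strand and was lower in deleted than in intact cells. Its level was 2.41, 3.14 and 2.36 CPM in intact untreated and 2.14, 3.83 and 3.56 CPM in intact PRL libraries. In deleted cells it was 1.11, 0.697 and 0.794 CPM untreated and 0.934, 0.257 and 0.706 CPM with PRL. All 6 deleted libraries were below all 6 intact ones, with 9 to 48 counts against 99 to 146, a pattern found in 0.0566% of tested genes. The averaged log2 fold change was -1.95 ± 0.29 (SE), with an adjusted p of 0.0562 in edgeR's quasi-likelihood test. It passed in 4 of 8 other settings (DESeq2 adjusted p = 5.49e-08, limma-voom adjusted p = 0.00146) and in 0 of 12 with a library left out, with an adjusted p from 5.49e-08 to 0.300 over these. The other 11 tested neighbours were not called for the deletion by edgeR, DESeq2 or limma-voom. Over all tested genes edgeR called 0.00566% in the averaged deletion comparison. APOL6, the next gene, was at 0.18 ± 0.18 in the same comparison, and PRL moved MB by -0.08 ± 0.28.

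HMOX1, named for its small p in the averaged PRL comparison, gave 25.6, 23.6 and 24.8 CPM in intact untreated libraries. Intact PRL libraries held 34.2, 48.9 and 30.4 CPM. These ranges did not overlap, a pattern found with PRL higher in 2.61% of all tested genes. The highest HMOX1 value was in intact PRL library 2, the library with the lowest APOL4 level of its group. In deleted cells HMOX1 was at 27.0, 17.1 and 24.0 CPM untreated and 33.0, 25.9 and 40.5 CPM with PRL, where the ranges overlapped.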
